A study of Mus musculus with 14 samples.

Results

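The genes described here are 40 genes of protein folding and quality control in the endoplasmic reticulum, among 35275 genes in the deposited table. They were chosen by name, as chaperones, disulfide isomerases, genes of endoplasmic reticulum-associated degradation and sensors of the unfolded protein response. The rule uses names and no measured values, but it was written with earlier results of these data known. Each of the 40 names occurred once in the table, and all 40 passed the filter on low counts in every comparison. RNA was sequenced from the carotid arteries of C57BL/6 mice aged 10 weeks, to see what deletion of Poldip2 does in each layer of the vessel. Poldip2 encodes polymerase delta interacting protein 2. Qiazol flushed through the lumen gave an endothelial fraction, and the artery that remained, with media and adventitia, gave a left-over fraction.

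The endothelial fraction had 4 libraries of Poldip2-floxed littermate controls and 4 of the endothelial knockout, Poldip2-EC-/-. The left-over fraction had 2 libraries labelled Poldip2-floxed and 4 labelled as the smooth muscle knockout, Poldip2-SMC-/-. Which Cre drove each deletion was not stated in the sources used. The left-over fraction also holds adventitial cells, in which a smooth muscle deletion is not meant to act. The labels number the libraries of a group as repeats and do not say that each came from a separate animal. The p-values therefore measure the spread between these libraries, which may be partly technical. Total counts ran from 15019891 to 23287155 per library.

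Poldip2, the targeted gene, was measured first as a check of the labels. In CPM (counts relative to the library's total, scaled by TMM over all 14 libraries) it was 46.3, 43.7, 48.3 and 59.8 in the endothelial controls and 36.5, 24.7, 25.6 and 21.5 in the endothelial knockouts, here and below in the order of the labels' repeat numbers. In the left-over fraction it was 27.4 and 23.5 CPM in the libraries labelled control and 54.9, 51.6, 68.8 and 70.7 CPM in those labelled knockout. All endothelial knockouts lay below all controls, although the test did not call the difference (log2 fold change -0.89, edgeR adjusted p = 0.27), while the left-over order was the opposite of the labels (1.29, SE 0.20, adjusted p = 0.00886). In the authors' deposited table, the column for smooth muscle controls held the average of the 4 labelled knockout libraries in 14805 of 14805 genes at 1 FPKM or more, within a relative tolerance of 1e-06. Poldip2 itself was lower in the smooth muscle knockout group of the authors' deposited table (-1.25, adjusted p = 6.7e-09), at 12.7 FPKM against 35.9 FPKM. In the authors' deposited table it was also called as lower in the endothelial knockout group (-0.70, adjusted p = 0.00055). By the labels' numbers, 3 of the 4 libraries labelled knockout also carry the number of an endothelial control, from Poldip2-floxed animals. The left-over libraries are therefore called labelled control and labelled knockout, and each direction given for that comparison would be the opposite with the labels exchanged.

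Proteins that enter the secretory pathway are folded in the endoplasmic reticulum by luminal chaperones, by lectin chaperones that bind their sugars and by enzymes that form disulfide bonds. Proteins that fail to fold are sent back to the cytosol and degraded. The unfolded protein response adjusts this machinery through the membrane sensors IRE1, PERK and ATF6. IRE1 splices the mRNA of the transcription factor XBP1, PERK slows translation, and ATF6 is released as a transcription factor. ATF6 and XBP1 bind elements in promoters of chaperone genes, among them the endoplasmic reticulum stress response element (ERSE). Endothelial cells and the cells of media and adventitia all secrete matrix or plasma proteins and depend on this machinery.

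Promoter windows are shown first, since the members that moved and those that did not are set against these elements further on. A window from 250 bases before to 50 bases after the start (RefSeq, GRCm38.p6) was found for 33 of the 40 members, 3 of them under a newer symbol. Ostc, Ppp1r15b, Hyou1, Manf, Derl1, Atf6 and Sec61a1 had none in the table used. The letters of 4 elements were searched on both strands. ERSE, CCAAT and CCACG with 9 bases between them, was in 39 of 32851 windows of all genes (0.119%) and in windows of 9 members (27.3% of 33). ERSE-II, ATTGG and CCACG with 1 base between them, was in 12 windows (0.0365%) and in those of 2 members. TGACGTGG, the unfolded protein response element, was in 222 windows (0.676%) and in that of 1 member, Txndc5. TGATGNAAT, the C/EBP-ATF response element bound by ATF4, was in 317 windows (0.965%) and in none of the 33 members. ERSE was first defined in promoters of such chaperone genes, so the share among members is a description. A match of letters is not a measured binding site, and a window without a match says only that these letters are not in it.

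The 12 matches to ERSE or ERSE-II are printed 5′ to 3′ on the strand of the gene, with the fixed letters of the element in capitals. Positions count from the start of transcription, with no position 0.
Hspa5, bases -65 to -47, chr2:34772025-34772043: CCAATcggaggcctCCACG
Syvn1, bases -44 to -26, chr19:6046532-6046550: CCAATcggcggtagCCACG
Pdia6, bases -98 to -80, chr12:17266491-17266509: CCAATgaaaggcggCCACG
Dnajc3, bases -105 to -87, chr14:118937827-118937845: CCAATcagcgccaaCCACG
Canx, bases -145 to -127, chr11:50325800-50325818: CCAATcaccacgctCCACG
Hsp90b1 upstream, bases -212 to -194, chr10:86705638-86705656: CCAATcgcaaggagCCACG
Hsp90b1 downstream, bases -107 to -89, chr10:86705533-86705551: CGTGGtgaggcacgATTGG
Creld2, bases -126 to -108, chr15:88819520-88819538: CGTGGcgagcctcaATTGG
Calr, bases -162 to -144, chr8:84847075-84847093: CGTGGtcgaccctcATTGG
Derl3, bases -156 to -138, chr10:75893242-75893260: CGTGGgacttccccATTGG
Herpud1 (ERSE-II), bases -52 to -42, chr8:94386377-94386387: ATTGGgCCACG
Dnajb11 (ERSE-II), bases 8 to 18, chr16:22857852-22857862: ATTGGcCCACG
Hspa5, Syvn1, Pdia6, Dnajc3, Canx and the upstream copy of Hsp90b1 hold ERSE in the direction of the gene. Creld2, Calr, Derl3 and the downstream copy of Hsp90b1 hold its reverse complement, and Hsp90b1 was the only member with 2 copies.

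Whole windows are given for 4 genes on which the left-over comparison turns, with element letters in capitals. Hspa5 and Hsp90b1 both hold ERSE but differed in that comparison, Herpud1 holds ERSE-II, and Dnajb9 passed the test there with none of the 4 elements in its window.
Hspa5, + strand, chr2:34771840-34772139: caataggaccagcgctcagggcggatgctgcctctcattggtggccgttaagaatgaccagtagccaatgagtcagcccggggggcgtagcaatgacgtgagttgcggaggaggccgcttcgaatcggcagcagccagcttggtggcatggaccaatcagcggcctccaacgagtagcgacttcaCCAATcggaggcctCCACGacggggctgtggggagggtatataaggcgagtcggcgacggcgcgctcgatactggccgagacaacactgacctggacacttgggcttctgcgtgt
Hsp90b1, - strand, chr10:86705395-86705694: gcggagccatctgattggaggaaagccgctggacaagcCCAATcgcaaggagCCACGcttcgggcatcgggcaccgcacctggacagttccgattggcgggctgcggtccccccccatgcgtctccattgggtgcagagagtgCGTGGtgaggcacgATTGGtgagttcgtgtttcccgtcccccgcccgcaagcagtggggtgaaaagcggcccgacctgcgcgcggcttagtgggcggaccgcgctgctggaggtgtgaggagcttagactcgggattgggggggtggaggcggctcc
Herpud1, + strand, chr8:94386179-94386478: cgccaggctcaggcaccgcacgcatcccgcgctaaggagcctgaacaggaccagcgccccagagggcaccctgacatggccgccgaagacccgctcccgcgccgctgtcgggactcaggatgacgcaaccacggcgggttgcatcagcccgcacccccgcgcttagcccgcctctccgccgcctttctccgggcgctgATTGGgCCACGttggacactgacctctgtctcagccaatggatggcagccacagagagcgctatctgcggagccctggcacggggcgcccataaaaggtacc
Dnajb9, - strand, chr12:44210019-44210318: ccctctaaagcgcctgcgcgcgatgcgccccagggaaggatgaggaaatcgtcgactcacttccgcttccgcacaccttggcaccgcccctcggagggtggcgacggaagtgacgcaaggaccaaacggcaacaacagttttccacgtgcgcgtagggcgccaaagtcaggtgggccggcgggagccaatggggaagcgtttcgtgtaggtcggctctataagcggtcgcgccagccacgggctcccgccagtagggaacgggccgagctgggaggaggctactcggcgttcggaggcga

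Levels per gene length were compared on the authors' deposited FPKM scale (counts scaled by gene length and by the library's total). Hspa5, which encodes BiP, the Hsp70 chaperone of the lumen, had the highest level of the 40 in endothelial controls, at 632 ± 235 FPKM (SD, n = 4). It was followed by Pdia3, a disulfide isomerase of glycoproteins, at 427 ± 62.1 FPKM, and by Calr, the soluble lectin chaperone calreticulin, at 370 ± 72.6 FPKM. These 3 values overlapped within their SD. P4hb, the classical protein disulfide isomerase, had 327 ± 25.8 FPKM, and Hsp90b1, which encodes the Hsp90 chaperone GRP94, had 211 ± 43.9 FPKM. Sensor genes were low by comparison, with Ern1 (IRE1) at 10.4 ± 1.23, Atf6 at 10.9 ± 0.539 and Eif2ak3 (PERK) at 11.8 ± 2.77 FPKM. Derl3, a derlin of the degradation machinery, was lowest at 0.921 ± 1.11 FPKM.

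The order of the most abundant members was the same in endothelial knockouts for the first 4, Hspa5 again leading at 628 ± 257 FPKM (SD, n = 4). Among the libraries labelled control in the left-over fraction, Pdia3 (429 ± 97.8 FPKM), Calr (404 ± 94.9) and P4hb (322 ± 38.8) led, and Hspa5 ranked 6th at 210 ± 98.3 FPKM (SD, n = 2 each). In those labelled knockout Hspa5 led again at 701 ± 161 FPKM, followed by Pdia3 at 502 ± 36.8 and Calr at 492 ± 40.3 FPKM (SD, n = 4 each). Herpud1, an adaptor of the degradation complex, ranked 11th, 12th and 11th in the first 3 groups and 5th, at 335 ± 88.0 FPKM, in the libraries labelled knockout. A level in such tissue RNA is a mean over cells, so fewer cells of a type and less RNA per cell cannot be told apart.

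**Figure D1:**
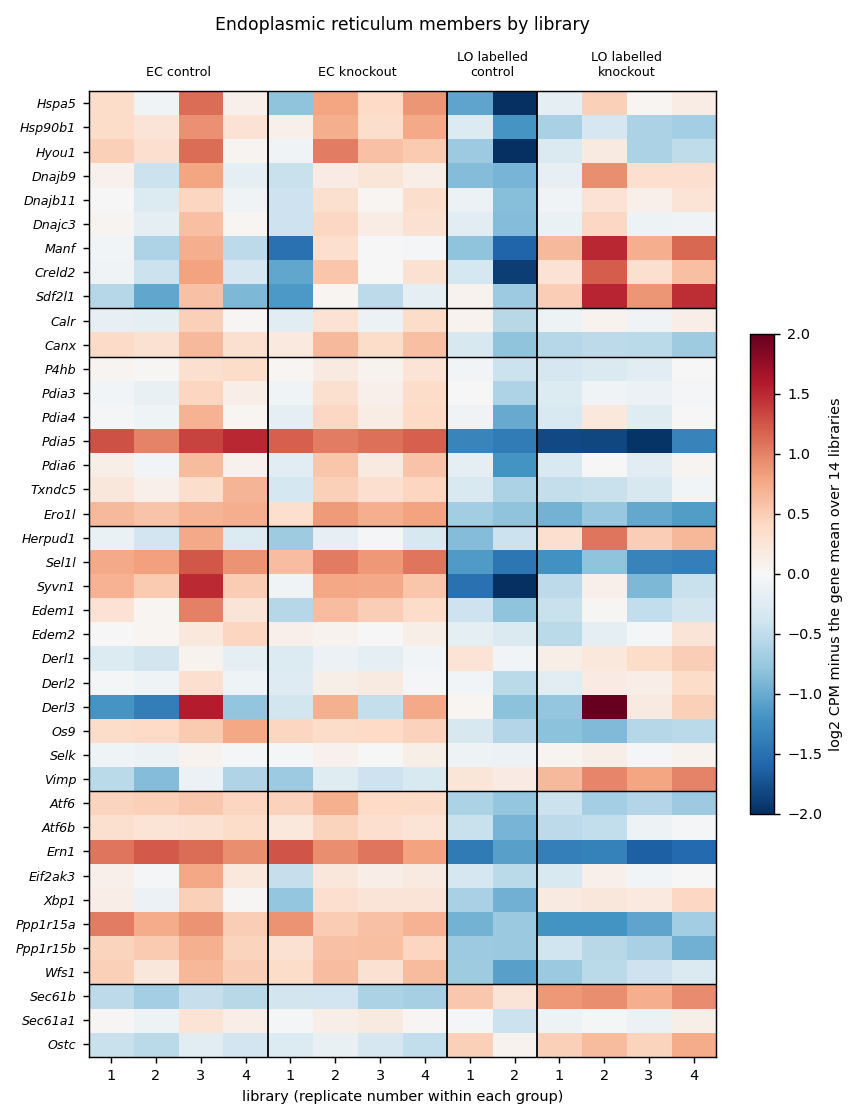
Level of each of the 40 genes (vertical axis, grouped by role from luminal chaperones at the top to translocation at the bottom) in each of the 14 libraries (horizontal axis, EC endothelial, LO left-over), as log2 CPM minus the gene's mean over all libraries. Colours end at 2 and -2, and values beyond are drawn at the end colour. Endothelial control 3 is red and endothelial knockout 1 blue for most chaperone genes, labelled control 2 is blue in most left-over genes, and Pdia5, Sel1l and Ern1 differ between the fractions in all libraries.

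The endothelial knockout comparison asked whether these genes differed in the libraries of the endothelial knockout. Poldip2 RNA remained there at 21.5 to 36.5 CPM, against 43.7 to 59.8 CPM in the controls. None of the 40 passed the test, and their fold changes lay close to 0. Hspa5 measured 1776, 1319, 2999 and 1479 CPM among the controls against 790, 2375, 1819 and 2531 CPM among the knockouts. Group means were 1893 ± 761 and 1879 ± 787 CPM (SD, n = 4 each). Each group thus held both high and low libraries, and the groups overlapped. Its log2 fold change was -0.02 with a 95% interval of -0.92 to 0.89.

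By edgeR's quasi-likelihood test, 0 of 14800 genes were called at an adjusted p under 0.05, and 917 (6.2%) had an unadjusted p under 0.05. Of the 40 members 0 had an unadjusted p under 0.05, and DESeq2, which called 68 genes (0.459%), called 0 of them. Their median log2 fold change was -0.02, beside 0.01 for all genes, with 16 positive (51.5% of all genes were) and 24 negative. In none of the 40 did the libraries of both groups stand apart, which they did in 3.83% of all genes, 2.28% upward and 1.55% downward. By role, the medians ran from -0.07 in sensors and their effectors to 0.04 in translocation and glycosylation.

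The precision differed widely among members. The interval of Atf6 ran from -0.19 to 0.19, that of Calr from -0.39 to 0.43 and that of Hsp90b1 from -0.42 to 0.44. For Manf, a secreted factor of the endoplasmic reticulum that binds BiP, it ran from -1.16 to 0.88. Manf was 142, 96.3, 245 and 103 CPM in controls and 52.5, 187, 149 and 146 CPM in knockouts.

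The 5 members with the smallest p did not pass either, their edgeR adjusted p running from 0.841 to 0.859. Pdia5, an isomerase of the disulfide family, was 168, 138, 178 and 197 CPM in controls and 160, 142, 150 and 160 CPM in knockouts, a log2 fold change of -0.17 (SE 0.10). Herpud1 was 312, 261, 577 and 281 CPM in controls and 209, 302, 332 and 273 CPM in knockouts (-0.37, SE 0.27). Control 3 alone lay above all knockouts for Herpud1. Eif2ak3 was 53.2, 48.5, 85.0 and 57.1 CPM in controls and 36.1, 58.1, 54.6 and 55.9 CPM in knockouts (-0.26, SE 0.21). Edem2, a lectin-like factor of glycoprotein degradation, had -0.13 (SE 0.09), and Os9, a lectin that hands misfolded glycoproteins to the ligase, had -0.12 (SE 0.09). Without both control 3 and knockout 1, a choice made after seeing the data, Herpud1 and Eif2ak3 were both at 0.07, and again no member passed.

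Within the endothelial fraction the members differed between libraries rather than between genotypes. Endothelial control 3 had the highest level of all 8 libraries in 27 of the 40 members, which was so in 12.5% of all genes tested. Endothelial knockout 1 had the lowest in 24, which was so in 19.7% of all genes. Both held for 21 members and for 3.93% of all genes. Summed over the 40 members, CPM was 18001 in control 3 and 10268 in knockout 1, and 11603 to 15733 in the other 6.

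After Derl3, which had a ratio of 7.72 at under 5 CPM in every endothelial library, 4 luminal chaperones and cofactors had the widest ranges. The ratio between the highest and lowest endothelial library was 4.66 for Manf, 3.79 for Hspa5, 3.59 for Creld2, a luminal protein induced by endoplasmic reticulum stress, and 3.33 for Sdf2l1, a cofactor of BiP. The next were degradation genes, Edem1 at 2.97, Syvn1 at 2.96 and Herpud1 at 2.76, while the other 5 luminal members ran from 1.76 (Hsp90b1) to 2.34 (Dnajb9). Creld2 was 151, 118, 276 and 126 CPM in controls and 76.8, 234, 160 and 197 CPM in knockouts. Sdf2l1 was 54.5, 39.2, 122 and 43.2 CPM in controls and 36.6, 83.0, 56.4 and 71.3 CPM in knockouts. In both genes control 3 was the highest library and knockout 1 the lowest.

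Other members hardly varied. The ratio of highest to lowest library was 1.17 for Selk, a selenoprotein of the degradation complex, 1.17 for Atf6b, the paralog of Atf6, and 1.26 for Atf6. Measured as the SD of log2 CPM within groups, the spread was 0.72 for Manf, 0.66 for Hspa5, 0.31 for Hsp90b1 and 0.07 for Atf6b. The median over members was 0.25, beside 0.21 for all genes tested.

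Genes of the cytosolic heat shock response stood at the same ends in the same libraries. Their 12 genes summed to 13823 CPM in control 3 and 2636 CPM in knockout 1, and to 4430 to 7506 CPM in the other 6 libraries. None of the 12 passed between the groups by edgeR (2 at an unadjusted p under 0.05), and all 12 had a negative log2 fold change, with a median of -0.47. Markers of adventitial fibroblasts were highest in both of these libraries, 4466 CPM over 10 genes in control 3 and 3832 in knockout 1, against 1161 to 2799 in the other 6. Macrophage markers were also highest there, 414 and 905 CPM over 10 genes, against 33.0 to 252. No marker of either list was at 0 in all libraries of a group, and 0 of 10 and 0 of 9 tested markers passed between the groups by edgeR, with 3 and 1 at an unadjusted p under 0.05. Smooth muscle markers summed to 325 to 471 CPM in controls and 454 to 687 CPM in knockouts, with 9 of 9 tested higher in knockouts and 0 passing (6 at an unadjusted p under 0.05). Adipocyte markers were also highest in control 3 and knockout 1, 175 and 459 CPM over 9 genes, against 8.22 to 98.1. Of 8 tested 0 passed. In knockout 1 the circadian clock gene Dbp was 112 CPM, against 7.02 to 57.4 in the other libraries. Arntl was 4.75 CPM there, against 15.3 to 56.5, while Nr1d1 (311 CPM) lay within the others' range. Of 12 clock genes 8 were higher in knockouts and 4 lower, with 0 passing (1 at an unadjusted p under 0.05). The part of any of these in the members' spread was not tested.

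**Figure D2:**
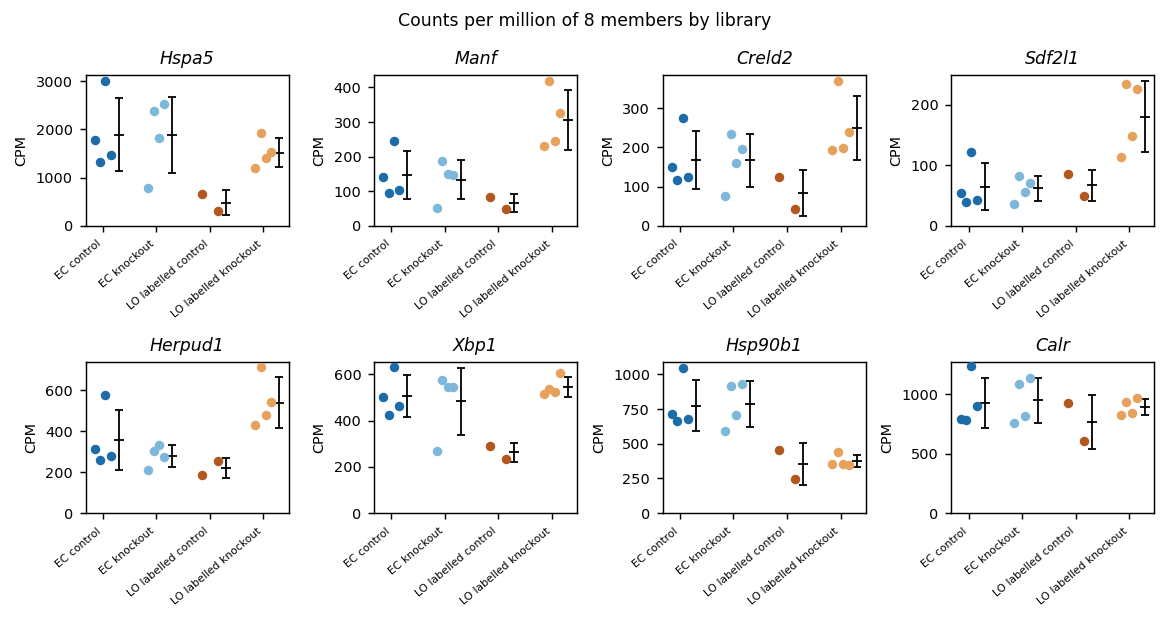
CPM (vertical axis, linear from 0) of 8 members in each library, with the mean and SD of each group as a horizontal mark with bars (EC n = 4 and 4, LO n = 2 and 4). Endothelial groups overlap in all 8 genes, and the left-over groups stand apart for Hspa5, Manf, Creld2, Sdf2l1, Herpud1 and Xbp1 but not for Hsp90b1 and Calr.

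The left-over comparison, meant to show the effect of deletion in smooth muscle, is given as labelled. Here 6 of the 40 members rose in the libraries labelled knockout and 0 fell: Manf, Hspa5, Syvn1, Dnajb9, Herpud1 and Xbp1. The test called 162 of 20442 genes (0.792%), 86 higher (0.421%) and 76 lower (0.372%). The 6 were luminal chaperones and their cofactors, genes of degradation and the transcription factor XBP1. Lectin chaperones, disulfide isomerases and translocation genes had no member that passed.

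Manf had the largest change of the members. It was 84.4 and 48.7 CPM in labelled controls 1 and 2 and 231, 419, 245 and 326 CPM in labelled knockouts 1 to 4. The lowest of the 4 was well above both labelled controls. Its log2 fold change was 2.21 (SE 0.30), a ratio of 4.61, with an edgeR adjusted p of 0.00967. Genes overlap Manf on both strands in the annotation (Rbm15b on the same one), and whether counting used the strand is not stated, so its reads may include theirs.

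Hspa5 was 660 and 303 CPM in the labelled controls and 1205, 1919, 1414 and 1521 CPM in the labelled knockouts. The groups stood apart, and labelled control 2 was the lower of its group. The log2 fold change was 1.66 (SE 0.30), with an edgeR adjusted p of 0.0348. This call was the least stable of the 6, passing under 5 of 12 alternatives, with log2 fold changes of 1.19 without labelled control 2 and 2.34 without labelled control 1. The remaining luminal chaperone that rose was Dnajb9, an Hsp40 cofactor of BiP also known as ERdj4, from 40.4 and 38.5 CPM to 66.0, 140, 92.5 and 92.5 CPM. Its labelled controls nearly coincided, and all labelled knockouts were higher (log2 fold change 1.32, SE 0.25, edgeR adjusted p = 0.0332).

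In degradation, Herpud1 and Syvn1 rose. Herpud1 went from 186 and 253 CPM in the labelled controls to 428, 712, 480 and 541 CPM in the labelled knockouts (log2 fold change 1.31, SE 0.22, edgeR adjusted p = 0.0132). Labelled control 2 was the higher of its group here, unlike for Hspa5 and Manf. Syvn1, the ubiquitin ligase HRD1 of the degradation complex, went from 26.3 and 18.5 CPM to 51.6, 79.4, 39.7 and 54.1 CPM (1.33, SE 0.25, adjusted p = 0.0332). Mrpl49 overlaps Syvn1 on the opposite strand and Mir6988 on the same one, and Gm15890 overlaps Herpud1 on the opposite strand. Xbp1 went from 291 and 234 CPM to 516, 537, 522 and 607 CPM (1.07, SE 0.18, adjusted p = 0.0129). The counts do not separate spliced from unspliced Xbp1 RNA.

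Of the other luminal chaperones, 5 of 6 were higher in all 4 labelled knockouts than in both labelled controls without passing. Creld2 was 124 and 43.1 CPM against 193, 369, 199 and 239 CPM (1.58, SE 0.52, edgeR adjusted p = 0.366). Sdf2l1 was 85.3 and 48.8 CPM against 114, 234, 149 and 226 CPM (1.44, SE 0.36, 0.167), and DESeq2 called it. Hyou1, an Hsp110-type exchange factor of BiP, was 33.0 and 12.7 CPM against 44.8, 62.0, 35.3 and 38.2 CPM (0.98, SE 0.39, 0.441). In these 3 genes labelled control 2 held less than labelled control 1. Without labelled control 1 Creld2 was at 2.55 and Hyou1 at 1.84, and both passed. That fit has a lone labelled control, the lowest library in both genes, which is assumed to vary like the labelled knockouts.

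Hsp90b1 was the luminal chaperone whose groups overlapped. It was 459 and 244 CPM in the labelled controls and 355, 441, 358 and 347 CPM in the labelled knockouts, with the labelled knockouts between the labelled controls. The log2 fold change was 0.10 with a 95% interval of -0.37 to 0.57. It was -0.29 without labelled control 2 and 0.63 without labelled control 1, and passed in neither. Reads of Hspa5 per read of Hsp90b1 were therefore 1.24 to 1.44 in the labelled controls and 3.40 to 4.39 in the labelled knockouts. In the endothelial fraction that ratio ran from 1.33 to 2.86. For Manf the ratio to Hsp90b1 was 0.184 to 0.1997 and 0.653 to 0.948 in the 2 left-over groups, and for Calr 2.02 to 2.48 and 2.11 to 2.80. The first pair of ranges stood apart and the last overlapped.

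Lectin chaperones and disulfide isomerases showed small differences and none passed. Calr was 928 and 605 CPM in the labelled controls and 828, 931, 841 and 971 CPM in the labelled knockouts (0.23, 95% interval -0.18 to 0.65). Pdia6, an isomerase that binds BiP, was 524 and 262 CPM against 484, 605, 514 and 625 CPM (0.52, -0.01 to 1.04). Pdia4, an isomerase of the chaperone complex, was 330 and 172 CPM against 280, 398, 293 and 345 CPM (0.40, -0.12 to 0.92). In all 3 genes labelled control 1 lay within the range of the labelled knockouts and labelled control 2 below it. Without labelled control 2 the log2 fold changes of Calr (-0.06) and Pdia4 (-0.01) turned negative, and without labelled control 1 they were 0.58 and 0.95, none of them passing. Canx, the membrane lectin chaperone calnexin, had -0.03 (-0.40 to 0.34), P4hb 0.03 (-0.36 to 0.43) and Pdia5 -0.33 (-0.76 to 0.09).

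Of the sensors and their effectors only Xbp1, an effector, passed. Eif2ak3 had 0.39 (SE 0.17), Wfs1, an endoplasmic reticulum membrane protein mutated in human Wolfram syndrome, 0.41 (SE 0.20), and Atf6 0.11 (SE 0.16). Ern1 had -0.22 (SE 0.19) and Ppp1r15a, the GADD34 subunit that reverses the block of translation, -0.16 (SE 0.18). By role, the median log2 fold change was 1.32 in 9 luminal chaperones and cofactors, 0.29 in 11 genes of degradation, 0.26 in 8 sensors and effectors, and 0.16 in 7 isomerases and oxidase.

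Over all 40, the median log2 fold change was 0.35, beside 0.03 for all genes tested. It was positive in 34 members and in 53.9% of all genes, and 15 had an unadjusted p under 0.05, against 10.4% of all genes. The libraries labelled knockout were all higher in 15 members and all lower in 0, against 8.88% and 12.4% of all genes. DESeq2 called 8 members, the 6 above with Sdf2l1 and Vimp, and 2.13% of all genes. Vimp, a selenoprotein that links the degradation complex to its ATPase, was 123 and 116 CPM in the labelled controls and 162, 205, 179 and 207 CPM in the labelled knockouts (0.67, SE 0.17, edgeR adjusted p = 0.0887). Labelled control 2 had the lowest level of the 6 left-over libraries in 32 of the 40 members, which was so in 13.7% of all genes tested.

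The 6 calls depended on single libraries and on the fit. Hspa5 had a log2 fold change of 1.19 without labelled control 2 and of 2.34 without labelled control 1. In neither of these fits did all of the 6 pass. Each of these fits sets a lone labelled control against 4 libraries, takes the spread from the labelled knockouts alone and assumes that the lone library varies like them. Without labelled knockout 4, 2 members passed, Herpud1 and Xbp1, and 1.29% of all genes. With all 14 libraries in a single fit none passed, against 0.95% of all genes, where the adjusted p ran from 0.0674 for Xbp1 to 0.178 for Hspa5. All 6 kept a positive log2 fold change under each of 12 alternatives.

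**Figure D3:**
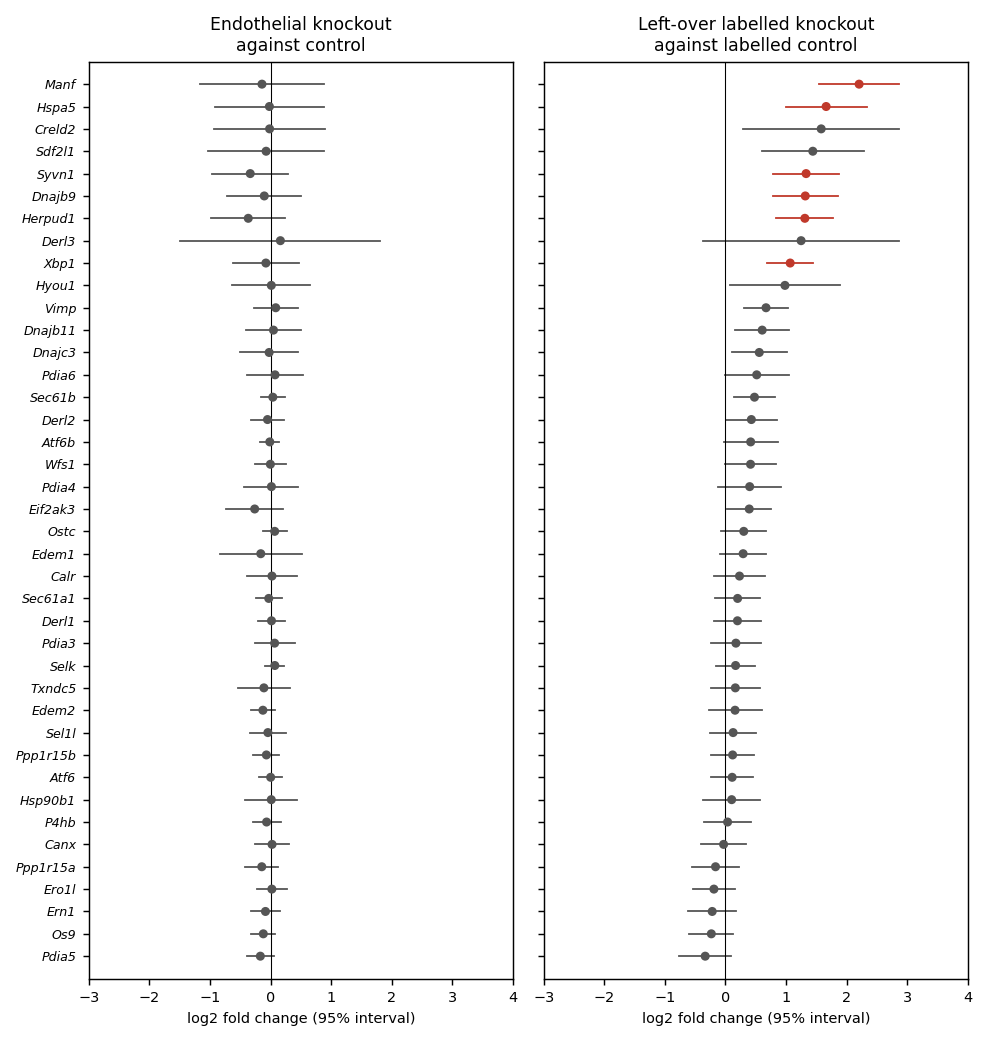
Log2 fold change (horizontal axis) with its 95% interval for each of the 40 genes, ordered by the left-over value, in the endothelial knockout comparison (left, n = 4 and 4) and the left-over comparison as labelled (right, n = 2 and 4). Red marks the 6 genes at an edgeR adjusted p under 0.05, from Xbp1 at 1.07 to Manf at 2.21, and every endothelial interval includes 0.

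Other gene groups moved in the same libraries. All 12 cytosolic heat shock genes were higher in the libraries labelled knockout and 6 rose, with Hsph1 at 3.12, the constitutive Hsp70 gene Hspa8 at 2.20 and the Hsp40 gene Dnaja1 at 1.74. Summed, the 12 had 1997 and 2001 CPM in the labelled controls and 4644 to 8701 CPM in the labelled knockouts. Of 12 clock genes 6 fell, among them Dbp (-5.10), Ciart (-4.09) and Nr1d2 (-2.36). Dbp, an output gene of the circadian clock, was 38.8 and 119 CPM in the labelled controls and 1.44, 2.83, 2.52 and 2.30 CPM in the labelled knockouts. Members, heat shock genes, clock genes and labelled genotype moved together over the 6 libraries, and their parts in the members' differences cannot be told apart.

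Cell type markers also differed somewhat. Endothelial markers summed to 897 and 1327 CPM in the labelled controls and 377 to 1018 CPM in the labelled knockouts, 11 of 12 lower and 0 passing by edgeR (2 at an unadjusted p under 0.05). Adipocyte markers summed to 7117 and 3060 CPM and to 942 to 3454 CPM, 8 of 9 lower and 0 passing (2 at an unadjusted p under 0.05). Smooth muscle markers summed to 8182 and 8681 CPM and to 7287 to 9306 CPM. Fibroblast markers summed to 38971 and 28181 CPM and to 27379 to 29819 CPM, 8 of 10 lower, and macrophage markers to 5383 and 5387 CPM and to 4099 to 5625 CPM, 5 of 10 lower.

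Other lists were higher with the members. Red blood cell markers were higher in 7 of 7, with a median of 1.21, summing to 370 and 764 CPM in the labelled controls and 639 to 2341 CPM in the labelled knockouts. Plasma and B cell markers were higher in 8 of 10, with a median of 0.77, although their sums overlapped, 138 and 111 CPM against 62.1 to 172 CPM. Skeletal muscle markers were higher in 6 of 6 tested, at 9.74 and 12.6 CPM against 10.5 to 21.9 CPM, and Schwann and nerve markers were lower in 6 of 6 tested, at 108 and 117 CPM against 74.8 to 106 CPM. Thyroid markers were higher in 4 of 6 tested, at 23.3 and 18.4 CPM against 18.3 to 38.4 CPM. By edgeR 0 genes of these 10 cell type lists passed, and 0 to 2 of a list had an unadjusted p under 0.05. Of all their markers, the thyroid gene Nkx2-1 alone was at 0 in every library of a group, the labelled controls. The part of these cell types in the members' differences was not tested.

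Further lists of the pathway were counted, chosen like the members with results of these data known. In the ATF4 and CHOP branch, which acts downstream of PERK, 3 of 18 genes rose: Mthfd2, a mitochondrial folate enzyme, by 2.30, Ddit3, the transcription factor CHOP, by 1.15 and Atf4 by 0.93. Ddit3 was 18.5 and 18.9 CPM in the labelled controls and 34.8, 47.4, 40.2 and 42.3 CPM in the labelled knockouts. Among glycan trimming, calnexin cycle and other oxidoreductase genes 1 of 17 tested rose, Txndc11 (1.01). Among genes of COPII coats and exit from the endoplasmic reticulum 1 of 18 rose, the coat subunit Sec23b (1.08). Of 20 oligosaccharyltransferase and translocon partners and of 12 collagen-specific enzymes, 0 passed by edgeR, with 3 and 2 at an unadjusted p under 0.05. No gene fell in these 5 lists.

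The authors' deposited table holds its own smooth muscle comparison, of a knockout group that is not the mean of the 2 libraries labelled control (equal in 1 of 14253 genes) with a control group that equals the 4 labelled knockout. In the authors' deposited table the knockout group was lower for Manf (-1.60, adjusted p = 5.0e-11), Herpud1 (-1.04, 6.6e-08), Hspa5 (-1.28, 1.2e-06), Syvn1 (-1.09, 6.7e-07), Dnajb9 (-1.12, 1.2e-07) and Xbp1 (-0.90, 4.1e-06). Mean Hspa5 in the authors' deposited table was 207 FPKM in its smooth muscle knockout group and 701 FPKM in its smooth muscle control group. Sdf2l1 (-1.06) and Vimp (-0.51) were also called in the authors' deposited table, and Hsp90b1 (-0.12) was not. The 8 members called there are those that DESeq2 called here, with the opposite sign.

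The difference of the labelled knockout effects between the fractions was fitted over all 14 libraries. It was called in 55 of 21464 genes (0.256%) and, by edgeR, in 0 of the 40 members. Of them 11 had an unadjusted p under 0.05, against 12.8% of all genes. Herpud1 had the smallest p, its effect being 1.66 higher in the left-over fraction (SE 0.41, adjusted p = 0.123), and Manf had 2.33 (SE 0.68, adjusted p = 0.196). DESeq2 called 5 members, Manf, Herpud1, Syvn1, Dnajb9 and Xbp1, and 2.04% of all genes. Without both endothelial control 3 and endothelial knockout 1, edgeR called 3, Manf (1.71), Herpud1 (1.22) and Syvn1 (1.20), and 0.92% of all genes. These libraries were left out because the members themselves were highest and lowest there, so these calls are no independent support. The median over members was 0.38, beside 0.06 for all genes. With the left-over labels exchanged this would be another contrast, which was not computed.

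The members that varied most between endothelial libraries were largely those highest in the left-over comparison. Of the 10 with the widest spread within endothelial groups, 9 were among the 10 with the highest left-over log2 fold change, the exceptions being Edem1, an enzyme of glycoprotein degradation, on one side and Xbp1 on the other. Over the 40 members the Spearman rho between the endothelial spread and the left-over log2 fold change was 0.70. The 2 measures share no library, but they share the genes and their count levels, and members are not independent replicates, so the value is a description.

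**Figure D4:**
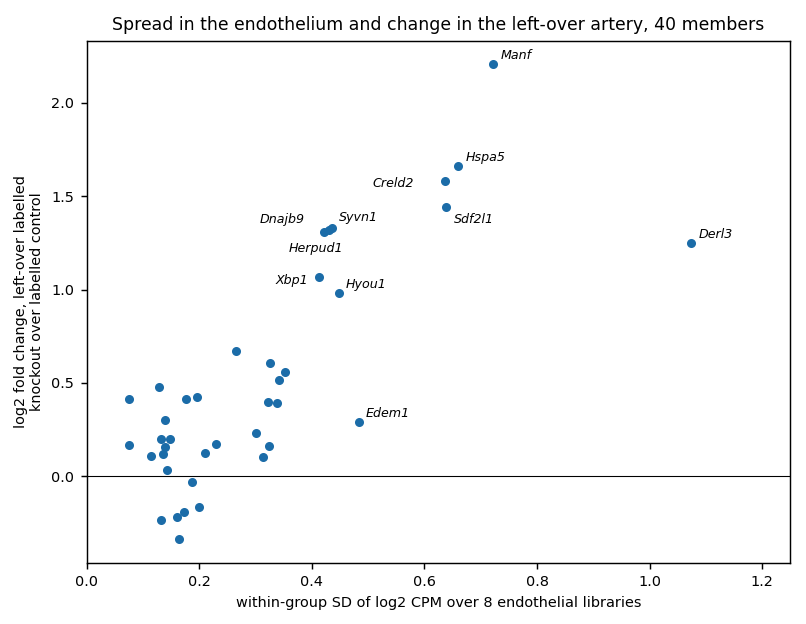
Each point is 1 of the 40 genes, with the within-group SD of log2 CPM over 8 endothelial libraries on the horizontal axis and the left-over log2 fold change, labelled knockout over labelled control, on the vertical axis. Manf, Hspa5, Creld2 and Sdf2l1 lie high on both, Edem1 has a wide spread with a change of 0.29, and genes with an SD under 0.2 lie between -0.33 and 0.48.

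Set against the promoter elements above, the 11 members with ERSE or ERSE-II had a median left-over log2 fold change of 0.61, from -0.03 (Canx) to 1.66 (Hspa5). The 22 members with a window and neither element had a median of 0.23, from -0.33 (Pdia5) to 1.44 (Sdf2l1). Both ranges overlap over most of their length, and 3 and 2 members of them passed. Canx, Calr and Hsp90b1, with its 2 copies, hold the same fixed letters as Hspa5 and had log2 fold changes from -0.03 to 0.23. Manf and Hyou1 had no window, so the element could not be looked for there.

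Between the fractions, many members were higher in the endothelial RNA. All 8 sensors and effectors passed as higher against the libraries labelled control, Eif2ak3 under 7 of 12 alternatives. Only 6 of the 8 passed against those labelled knockout, where Eif2ak3 and Xbp1 did not and Xbp1 had -0.20. Against the left-over libraries labelled control, 20 members were higher and 4 lower, 24 of 40 (60%), where 12149 of 18484 genes (65.7%) were called, 34.6% higher and 31.1% lower. The total was close to that of all genes. The log2 fold change was positive in 34 members (48.6% of all genes), 27 had an unadjusted p under 0.05 (69.9% of all genes), and DESeq2 called 25 (62.6% of all genes). Libraries stood apart upward in 26 members and downward in 3, against 40.3% and 36.1% of all genes. If the left-over labels were exchanged, the 2 libraries compared here would be smooth muscle knockouts.

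Pdia5 differed most. It was 168, 138, 178 and 197 CPM in endothelial controls and 27.6 and 26.3 CPM in the left-over libraries labelled control. All endothelial libraries were far above both (log2 fold change 2.59, SE 0.15, edgeR adjusted p = 1.2e-06). Syvn1 was 120, 106, 209 and 105 CPM against 26.3 and 18.5 CPM (2.52, SE 0.38). Its partner Sel1l, the adaptor of the HRD1 ligase, was 488, 509, 679 and 536 CPM against 131 and 106 CPM (2.15, SE 0.17). Both subunits of that ligase were thus several times as high in the endothelial fraction, with no overlap.

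Among sensors and effectors, Ern1 was 81.2, 90.1, 83.9 and 73.9 CPM in endothelial controls and 14.5 and 18.1 CPM in the left-over libraries (2.27, SE 0.14, edgeR adjusted p = 1.6e-06). Ppp1r15a was 184, 152, 169 and 128 CPM against 46.9 and 54.3 CPM (1.57, SE 0.16). Atf6 was 87.3, 89.9, 93.8 and 87.0 CPM against 41.6 and 37.5 CPM (1.11, SE 0.09). Endothelial values were narrow for all 3 and lay above both left-over libraries. Wfs1 (1.29), Ppp1r15b, the constitutive counterpart of Ppp1r15a (1.21), Atf6b (0.91), Xbp1 (0.88) and Eif2ak3 (0.66) were also higher.

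Of the chaperones and folding enzymes, Hspa5 (1.91, SE 0.49), Hyou1 (1.74, SE 0.50), Hsp90b1 (1.07, SE 0.30) and Canx (0.90, SE 0.16) were higher, as were Ero1l, the oxidase that recharges disulfide isomerases (1.34, SE 0.09), and Txndc5 (0.75, SE 0.17), an isomerase with thioredoxin domains. Hspa5, Hyou1, Hsp90b1, Edem1, Edem2 and Eif2ak3 did not pass without labelled control 2, where 18 members and 47.1% of all genes passed. Without labelled control 1, 28 members and 49% of all genes passed. In both fits the left-over arm is a lone library, assumed to vary like the endothelial controls. Os9 (0.90), Edem1 (0.97) and Edem2 (0.35) were the further genes of degradation that were higher.

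The 4 lower members were small subunits and membrane proteins. Sec61b, a subunit of the translocation channel, was 54.5, 49.1, 57.0 and 53.3 CPM in endothelial controls and 114 and 94.2 CPM in the left-over libraries (-1.03, SE 0.10, edgeR adjusted p = 2.5e-05). Vimp was 71.2, 57.0, 95.4 and 68.1 CPM against 123 and 116 CPM (-0.78, SE 0.17). Ostc, a subunit of the oligosaccharyltransferase, was 98.8, 92.5, 115 and 104 CPM against 188 and 141 CPM (-0.75, SE 0.13). For these 3 the fractions did not overlap. Derl1, a channel-like derlin of degradation, had -0.37 (SE 0.14) with overlap.

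Against the 4 left-over libraries labelled knockout, 17 members were higher and 7 lower, where 13404 of 17881 genes (75%) were called, 36.9% higher and 38% lower. The log2 fold change was positive in 25 members (48.6% of all genes), 24 had an unadjusted p under 0.05 (76.9% of all genes), and DESeq2 called 25 (75.5% of all genes). Libraries stood apart upward in 16 members and downward in 4, against 37.7% and 30.6% of all genes. The endothelial controls are shared by both comparisons, so their values are given side by side. Pdia5 was 2.91 higher and Ern1 2.47, beside 2.59 and 2.27 against the labelled controls. Sel1l (2.01), Ppp1r15a (1.74), Ero1l (1.52), Syvn1 (1.17), Os9 (1.12) and Hsp90b1 (0.95) were also higher on both sides. Hspa5 had 0.23 (SE 0.25, edgeR adjusted p = 0.427) here and 1.91 there.

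In all, 3 members passed as lower here and did not pass against the labelled controls. Sdf2l1 had -1.58 and Manf -1.16 here, both passing, and -0.12 and 1.07 against the labelled controls, neither passing. Herpud1 had -0.69 here, which passed, and 0.63 there, which did not. Of 15 alternatives of the comparison with the labelled knockouts, Sdf2l1 passed in 15, Manf in 14 and Herpud1 in 7. Sec61b (-1.52), Vimp (-1.46), Ostc (-1.06) and Derl1 (-0.58) were lower on both sides. Derl1 did not pass under every alternative against the labelled controls.

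**Figure D5:**
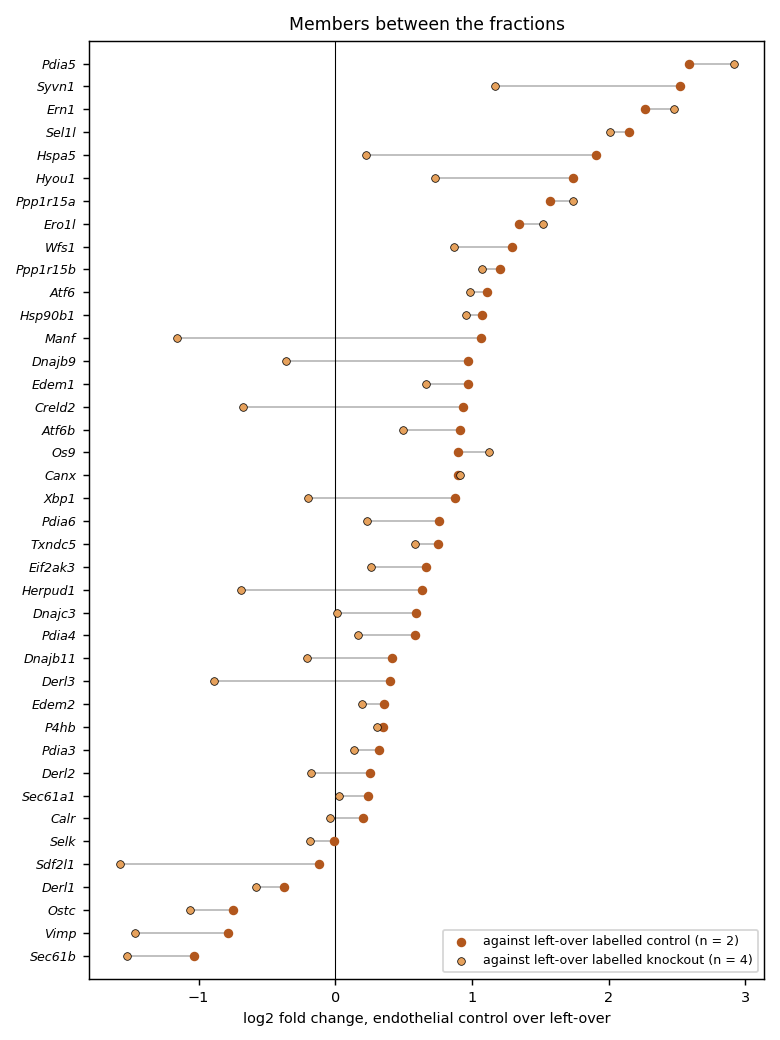
Log2 fold change (horizontal axis) of endothelial controls (n = 4) over left-over libraries labelled control (dark, n = 2) and over those labelled knockout (light, n = 4) for each of the 40 genes, without error bars. Pdia5, Ern1 and Sel1l lie above 2 on both, Sec61b lies below -1 on both, and Hspa5, Manf, Creld2, Sdf2l1 and Syvn1 have the widest gaps between the 2 points.

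The fractions differ in scale as well as in genes. With library size alone in place of TMM, the all-gene median went from -0.05 to -0.38 against the labelled controls and from -0.05 to -0.42 against the labelled knockouts. The members' median went from 0.82 to 0.49 and from 0.21 to -0.16. Their split became 17 higher and 5 lower against the labelled controls (22 of 40), where 66.3% of all genes passed. Against the labelled knockouts it became 12 higher and 15 lower (27 of 40), where 74.9% of all genes passed. There P4hb went from 0.31 to -0.06. Sel1l, Pdia5, Ern1, Ero1l, Ppp1r15a, Syvn1, Atf6, Canx, Os9, Ppp1r15b and Wfs1 passed as higher under every alternative of both comparisons. Sec61b, Vimp and Ostc passed as lower under every alternative of both.

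Neighbouring lists are counted beside all genes, of which 65.7% were called against the labelled controls, 34.6% higher and 31.1% lower. Genes of glycan trimming, the calnexin cycle and other oxidoreductases were 13 higher and 3 lower of 17 against the labelled controls, with the mannosidase-like Edem3 at 2.36, the folding sensor Uggt1 at 2.34 and the glucosidase subunit Ganab at 1.94. In the ATF4 and CHOP branch 10 of 18 were lower and 3 higher, with the asparagine synthetase gene Asns at -3.97 and the serine synthesis gene Phgdh at -3.97 on one side and the pseudokinase gene Trib3 at 2.22 on the other. Oligosaccharyltransferase and translocon partners had 7 higher and 3 lower of 20, and collagen-specific enzymes 3 and 3 of 12, with the collagen chaperone gene Serpinh1 at -1.34. COPII genes had 6 higher and 4 lower of 18. Cytosolic heat shock genes had 6 higher and 0 lower of 12.

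Against the libraries labelled knockout the balance of some lists differed. Of all genes 75% were called there, 36.9% higher and 38% lower. Heat shock genes had 2 higher and 2 lower, oligosaccharyltransferase and translocon partners 5 higher and 8 lower, and COPII genes 6 higher and 7 lower. Collagen-specific enzymes had 6 higher and 3 lower. Glycan trimming and related genes had 11 higher and 3 lower, and the ATF4 and CHOP branch 3 higher and 12 lower.

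Cell types set the fractions apart by design. Endothelial markers summed to 17689 to 20874 CPM in endothelial controls and to 897 and 1327 CPM in the left-over libraries labelled control, 12 of 12 higher. Smooth muscle markers summed to 325 to 471 CPM and to 8182 and 8681 CPM, 10 of 10 lower, and adventitial fibroblast markers to 2238 to 4466 CPM and to 28181 and 38971 CPM, 10 of 10 lower. No marker of these lists was at 0 in all libraries of a group. Which cells of the left-over artery carry the members' RNA was not tested.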

How the data were processed

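The deposited table holds, for 14 libraries, raw read counts per gene and FPKM, with the authors' own log2 fold changes and adjusted p-values for group comparisons, per the file headers. The submitters' processing notes name the aligners STAR 2.5 and TopHat, the counter HTSeq 0.6.1, STAR-Fusion, and for testing edgeR 3.16.5 and DESeq2. The build in those notes is mm9, but deposited positions match GRCm38: 97.8% of identifiers were in GENCODE M21, and 97.6% of these began within 5 kb of the same start. The deposited FPKM equalled count over gene length and total in 100% of nonzero values, at a relative tolerance of 0.001. No other per-sample columns were left out.

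Deposited counts were tested with edgeR 4.0.16 in R 4.3.3 (quasi-likelihood F test with robust fit, limma 3.58.1 and statmod 1.5.0). Genes were kept by filterByExpr (minimum count 10, total 15), scaled by TMM and called at a Benjamini-Hochberg adjusted p under 0.05 over all genes tested. Each comparison used only its own libraries, and the difference between effects used all 14. Printed CPM came from a single TMM scaling of all 14 libraries (prior count 2 for log2 CPM). Intervals are 95% and use edgeR's degrees of freedom. The fits were tried on simulated counts of independent genes, with an equal dispersion for all and no shared library effects. These data are less simple, so that run does not measure how reliable the calls here are. A depth of 15019891 to 23287155 counts limits the precision of low genes, of which Derl3 was the lowest member. No pair of libraries agreed within sampling noise (smallest chi-square per degree of freedom 8.79).

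The members and all gene lists were chosen with earlier results of these data known. All 40 members could be named: 12 core members and any other member that passed are given library by library. Where none passed, the 5 with the smallest p are named. Of each other list, up to 4 genes that passed are named for a comparison, and the per-library values of Dbp and Ddit3 are examples. Alternatives were RLE size factors, library size only, no filter, DESeq2 1.42.0, all libraries in a single fit, repeat-number and label-number blocks, and each library left out. Whether equal repeat numbers mark paired libraries could not be decided. Deviations of same-numbered libraries from their group means correlated from -0.193 to 0.157 in the endothelial fraction and at -0.0309 and 0.342 in the left-over fraction. Across fractions they ran from -0.163 to 0.421, the highest between repeats 2 of endothelial controls and left-over libraries labelled knockout. In no set of pairs were all of them over 0.1, but so few libraries per group can neither show nor exclude pairing. Numbers 748, 790 and 791 in the labels are shared by endothelial controls and left-over libraries labelled knockout, with correlations of -0.00788, 0.196 and -0.186. Promoter windows come from RefSeq (GRCm38.p6).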

Additional observations from a re-analysis of the deposited data

Results flagged for a closer look

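In 39 groups of 4 libraries, over the 12 core members and Syvn1, 6 held a library whose gap to its nearest neighbour, as a share of the group's range, was above Dixon's 95% critical value for 4 samples. For a single group, chance gives such a gap in about 1 in 20 cases. The 39 groups share libraries, and the genes varied together, so they are not independent and the count is a description. In 4 cases it was endothelial control 3, the highest of its group: Herpud1 at 577 CPM, Hsp90b1 at 1048 CPM, Pdia4 at 556 CPM and Syvn1 at 209 CPM. Xbp1 was lowest in endothelial knockout 1, at 267 CPM. Hsp90b1 was highest in left-over labelled knockout 2, at 441 CPM.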

How the results depend on the processing

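In the endothelial knockout comparison 0 members passed under each of 15 alternatives, and all 12 core members changed sign in at least 1 of them. Without both endothelial control 3 and endothelial knockout 1, a choice made after seeing the data, Herpud1 turned from negative to 0.074 and Eif2ak3 to 0.0721. In the left-over comparison the count of members was 6, with 0 when all 14 libraries were in a single fit and from 2 to 6 with 1 library left out. With 1 library left out Calr ran from -0.0558 to 0.58, Hsp90b1 from -0.29 to 0.63 and Pdia4 from -0.00832 to 0.95, each negative without labelled control 2. Between the fractions, with library size only, the members' median was 0.49 against the labelled controls and -0.16 against the labelled knockouts, where P4hb turned to -0.0603. In the difference between the effects DESeq2 called 5 members, and edgeR called 3 without both endothelial control 3 and endothelial knockout 1. With the repeat number as a block, 3 members passed in the left-over comparison, where only repeats 1 and 2 could be used, and 9.29% of all genes. With the block 0 passed in the endothelial comparison and in the difference between effects, 28 (61% of all genes) and 23 (76.8%) between the fractions, and 25 (65.6%) with the shared label number as the block against the labelled knockouts. The cause of these shifts was not tested. Depth limits Derl3, whose endothelial interval ran from -1.49 to 1.81.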
